A study of Mus musculus with 11 samples.

Results

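Chemokines are small secreted proteins that steer the movement of cells, and the chemokine receptors are the membrane proteins that read them. The genes described here are the rows of the count table whose symbol is a numbered Ccl, Cxcl, Ccr, Cxcr or Ackr name. The pattern found 48 of the 38406 genes in the table, 31 of them ligands and 17 of them receptors. Levels are in CPM, counts scaled to a common library total. Of the 48, 26 passed the low-count filter and could be tested, 22 did not, and 4 of those 22 (Ccr8, Cxcl3, Ccl26 and Cxcr1) were at 0 counts in every library. No row carried an Ackr symbol, because the table uses older names, and the row Cxcr7 is the gene now called Ackr3.

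The 11 libraries came from cerebellar tumours of CD1 mice, frozen fresh, in 4 models of medulloblastoma, a tumour of the cerebellum. The N1ICD tumours (n = 3) were made by giving Math1-positive cells MYC and Gfi1 together with N1ICD, the inner signalling domain of Notch1. In the cerebellum, cells that express Math1 include the granule neuron progenitors. For the S100b-cell tumours (n = 3), MYC and Gfi1 were given to cells positive for S100b, a glial calcium-binding protein. The MYC/Otx2 tumours (n = 3) and the MYC/Gfi1 tumours (n = 2) expressed their oncogenes constitutively and are described by the series as earlier models of Group 3 medulloblastoma. MYC was thus shared by all groups and Gfi1 by all but the MYC/Otx2 tumours, and no normal cerebellum was among the libraries used. Whether each library is a different animal is not in the labels, and p-values measure a spread between libraries that may be technical.

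Inflammatory chemokines are made on demand, many of them through interferon or NF-kB signals, and draw monocytes, T cells, B cells or neutrophils into a tissue. Homeostatic chemokines are made steadily and place cells during development and in lymphoid organs. In the cerebellum the pair Cxcl12 and Cxcr4 holds granule neuron progenitors at the outer surface beneath the meninges, and Cxcr7 takes up Cxcl12 without signalling through G proteins.

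The 250 bases before the annotated start are shown for 4 ligands. Cxcl14 and Ccl8 are shown because they were called in 4 and 3 of the 6 comparisons, more than any other gene described, and Cxcl9 and Cxcl10, neighbours on chromosome 5, because both were highest in N1ICD replicate 2. The windows are from RefSeq on GRCm38.p6, 5′ to 3′ on the strand of the gene, and capitals mark matches to the motifs searched. They lie at chr13:56296552-56296801 (minus strand) for Cxcl14, chr11:82114935-82115184 (plus strand) for Ccl8, chr5:92328080-92328329 (minus strand) for Cxcl9 and chr5:92348890-92349139 (minus strand) for Cxcl10.
Cxcl14: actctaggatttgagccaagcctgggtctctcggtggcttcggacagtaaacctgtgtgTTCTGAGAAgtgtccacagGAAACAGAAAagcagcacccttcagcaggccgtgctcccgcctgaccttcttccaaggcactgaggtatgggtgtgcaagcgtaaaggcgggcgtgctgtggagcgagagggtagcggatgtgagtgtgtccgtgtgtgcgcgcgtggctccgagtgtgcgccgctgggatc
Ccl8: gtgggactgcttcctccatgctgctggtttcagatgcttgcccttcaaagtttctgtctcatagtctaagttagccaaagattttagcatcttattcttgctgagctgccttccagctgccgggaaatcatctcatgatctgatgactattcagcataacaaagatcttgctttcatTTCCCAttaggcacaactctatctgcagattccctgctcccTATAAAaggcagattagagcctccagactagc
Cxcl9: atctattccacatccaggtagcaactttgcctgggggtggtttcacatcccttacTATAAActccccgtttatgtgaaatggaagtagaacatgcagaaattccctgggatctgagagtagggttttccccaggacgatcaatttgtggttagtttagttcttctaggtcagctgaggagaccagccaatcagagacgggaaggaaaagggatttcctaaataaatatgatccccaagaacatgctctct
Cxcl10: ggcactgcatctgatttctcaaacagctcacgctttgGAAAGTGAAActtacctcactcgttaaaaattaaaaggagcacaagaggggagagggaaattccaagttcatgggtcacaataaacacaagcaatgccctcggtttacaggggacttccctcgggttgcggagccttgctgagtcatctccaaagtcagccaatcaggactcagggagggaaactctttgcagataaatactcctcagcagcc

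Both strands were searched for 7 motifs, and in these windows no match overlapped another. They were the core of the interferon-stimulated response element (GAAA and GAAA 2 bases apart), the core of the gamma-activated site (TTC and GAA 3 bases apart) and a kappa-B type motif (GGG and TTTCC 2 bases apart). The others were the E-box CACGTG, the RBPJ-type TGGGAA, the OTX-type TAATCC and the TATA motif TATAAA. The interferon core was present in 2.98% of all 32851 windows of the same length and in 3 of the 35 windows that 33 chemokine and receptor genes have, those of Ccl19, Cxcl10 and Cxcl14. In Cxcl10 it read GAAAGTGAAA, 213 to 204 bases before the start, and in Cxcl14 it read GAAACAGAAA, 172 to 163 bases before the start. The Cxcl14 window also held the gamma-activated site core as TTCTGAGAA, 191 to 183 bases before the start, a motif present in 7.02% of all windows. The Ccl8 window held TATAAA (12.4% of all windows) 32 to 27 bases before the start, and the RBPJ-type motif on the other strand as TTCCCA (21.6% of all windows) 73 to 68 bases before it. Cxcl9 held TATAAA 195 to 190 bases before its start. None of the 4 windows held the kappa-B type motif (1.41% of all windows), the E-box (6.02%) or the OTX-type motif (6.25%). Of the 35 windows, 6 held the kappa-B type motif, those of Ccl20, Ccl9, Ccr3, Cxcl1, Cxcl2 and Cxcl3. The E-box was in 1 of the 35 and the OTX-type motif in 4. Only the strings given were searched, so looser forms, such as a less strict kappa-B form, were not counted. A match is a string of letters and not a bound site.

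Library totals were 2584768 to 3376389 counts in the N1ICD, 12767656 to 15186763 in the S100b-cell, 6967686 to 8334356 in the MYC/Otx2 and 6526486 and 7533317 in the MYC/Gfi1 tumours, so 1 count was worth 0.349 to 0.429 CPM in an N1ICD library and 0.0647 to 0.0782 CPM in an S100b-cell library. Mitochondrial genes took 23.2% to 27.6% of counts in the N1ICD libraries, 14.7% to 18.5% in the S100b-cell libraries, 5.18% to 5.74% in the MYC/Otx2 libraries and 5.96% and 6.00% in the MYC/Gfi1 libraries. The column names of the N1ICD and S100b-cell libraries each follow a style of their own, so for these groups library set and model cannot be told apart. Atoh1, which encodes Math1, was at 0 counts in the N1ICD and MYC/Otx2 libraries, and the summed level of 8 granule progenitor genes was 9.06 to 171 CPM in N1ICD, 21.9 to 186 CPM in S100b-cell, 79.9 to 282 CPM in MYC/Otx2 and 48.8 and 1689 CPM in MYC/Gfi1 libraries. S100b was at 1.23, 27.7 and 63.8 CPM in the S100b-cell libraries. The oncogenes were not used to check the labels, because a 3′ tag reads a transgene only if the construct kept the mouse 3′ end. In whole tumours, fewer cells of a type and less RNA per cell cannot be told apart.

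The MYC/Otx2 tumours had a chemokine profile led by a single gene. Cxcl14 made up 50.8%, 72.8% and 65.7% of the summed level of the 48 genes in their 3 libraries (a 3′ tag count does not grow with transcript length). No gene led all libraries of the N1ICD or the S100b-cell tumours. In the N1ICD tumours the leading genes were Cxcr4, Cxcl9 and Cxcr7 in replicates 1, 2 and 3, in the S100b-cell tumours they were Cxcl9, Cxcl13 and Ccl8, and in both MYC/Gfi1 libraries the leading gene was Ccl5. The summed level was 210, 740 and 79.1 CPM in the N1ICD tumours, 852, 551 and 272 CPM in the S100b-cell libraries, 201, 240 and 153 CPM in the MYC/Otx2 tumours and 339 and 485 CPM in the MYC/Gfi1 tumours. Receptors made up 181 of the 210 CPM in N1ICD replicate 1, while in each of the other 10 libraries ligands made up the larger part.

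**Figure D1:**
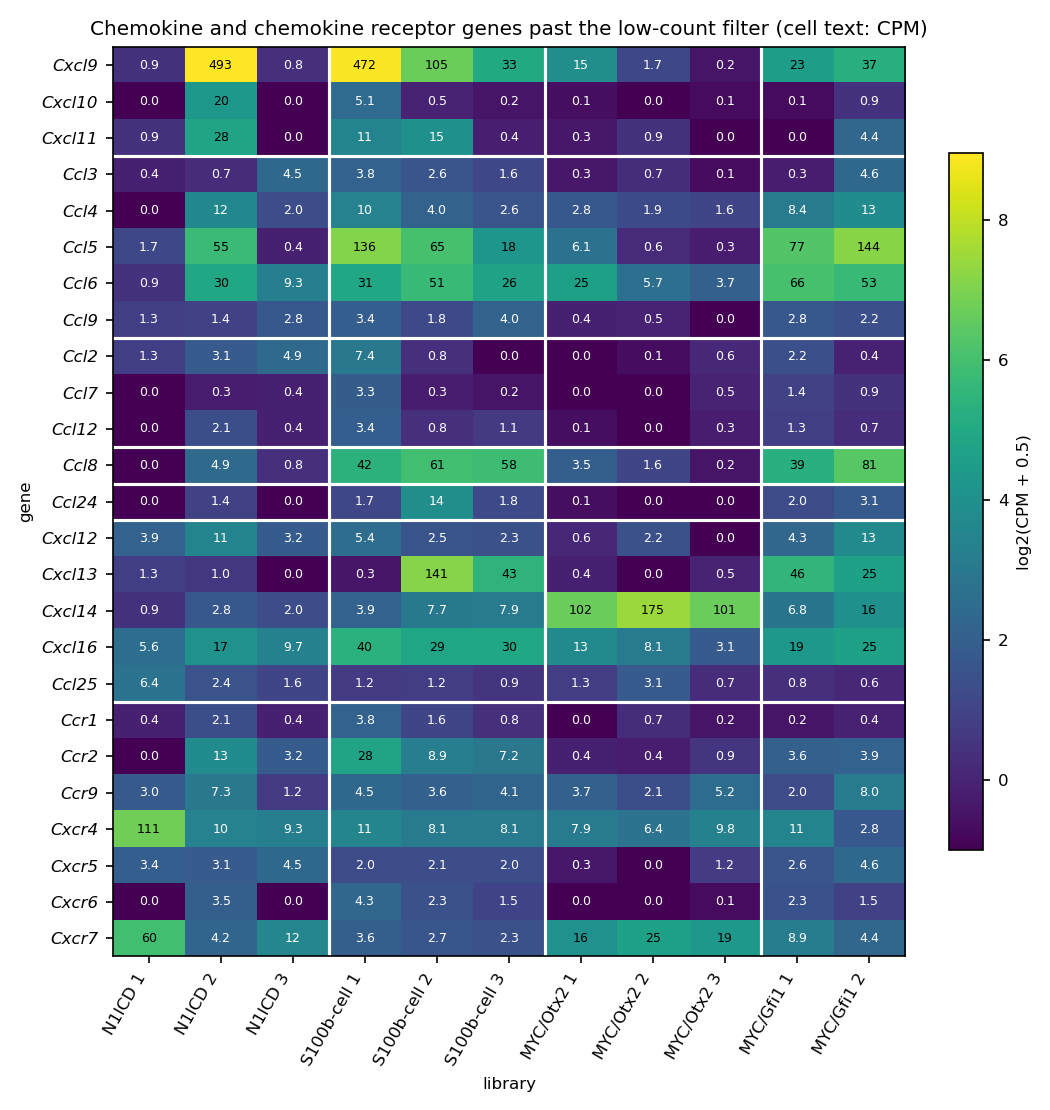
Level of 25 chemokine and receptor genes that passed the low-count filter, in the 11 libraries (rows are genes, with ligands above receptors, columns are libraries by group, colour is log2(CPM + 0.5), and the text in each cell is CPM). Cxcl14 reads 102, 175 and 101 CPM in the MYC/Otx2 libraries and at most 15.5 CPM elsewhere.

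The 26 genes that could be tested were compared among the models in 6 comparisons with edgeR's quasi-likelihood test. A gene was called at a Benjamini-Hochberg adjusted p under 0.05 over 15228 genes. The comparisons share libraries, so the same groups recur in several of them. In S100b-cell against MYC/Otx2 tumours, 8 genes rose (among them Ccl24, Ccl8, Ccl9, Ccr2, Cxcl13, Cxcl16 and Cxcr6) and 2 fell (Cxcl14 and Cxcr7), where 17.9% of all genes tested were called, 1526 of 15228 (10%) higher and 7.89% lower. In MYC/Otx2 against MYC/Gfi1 tumours, Cxcl14 rose and Ccl8 fell, with 5.46% of all genes called, 2.43% higher and 3.03% lower. In N1ICD against MYC/Gfi1 tumours, Cxcl14 and Ccl8 fell, with 11.5% of all genes called, 5.47% higher and 6.05% lower. In N1ICD against MYC/Otx2 tumours Cxcl14 alone was called, and it fell, with 21.8% of all genes called, 12.0% higher and 9.76% lower. In N1ICD against S100b-cell tumours none was called by edgeR (1.21% of all genes, 0.808% higher and 0.407% lower), although 8 had an unadjusted p under 0.05 (18.7% of all genes) and DESeq2 called 3. In S100b-cell against MYC/Gfi1 tumours edgeR called 0 (4.35% of all genes, 2.34% higher and 2.01% lower), 0 had an unadjusted p under 0.05 (23.7% of all genes) and DESeq2 called 0.

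The median log2 fold change of the 26 genes was 2.83 in S100b-cell over MYC/Otx2 tumours, where that of all genes tested was 0.17. It was -2.44 in MYC/Otx2 over MYC/Gfi1 tumours (-0.14 over all genes) and 2.26 in N1ICD over MYC/Otx2 tumours (0.14 over all genes). It was -0.43 in N1ICD over MYC/Gfi1 tumours (-0.01), -0.88 in N1ICD over S100b-cell tumours (-0.06) and 0.36 in S100b-cell over MYC/Gfi1 tumours (0.01). These medians cover only genes that passed the filter, which a gene could do through its level in a single group, so they describe those genes and not all 48. In S100b-cell against MYC/Otx2 tumours, 16 of the 26 had every S100b-cell library above every MYC/Otx2 library and 2 had every one below, against 28.6% and 21.8% of all genes tested. In MYC/Otx2 against MYC/Gfi1 tumours 2 lay wholly above and 16 wholly below (20.1% and 23.6% of all genes). In N1ICD against MYC/Gfi1 tumours the counts were 1 above and 8 below (18.2% and 19.8%), and against MYC/Otx2 tumours 4 and 1 (20.7% and 20.8%). They were 3 and 5 in N1ICD against S100b-cell tumours (1682 of 15228 genes, 11%, and 15.1%) and 4 and 3 in S100b-cell against MYC/Gfi1 tumours (22.4% and 18.9%).

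**Figure D2:**
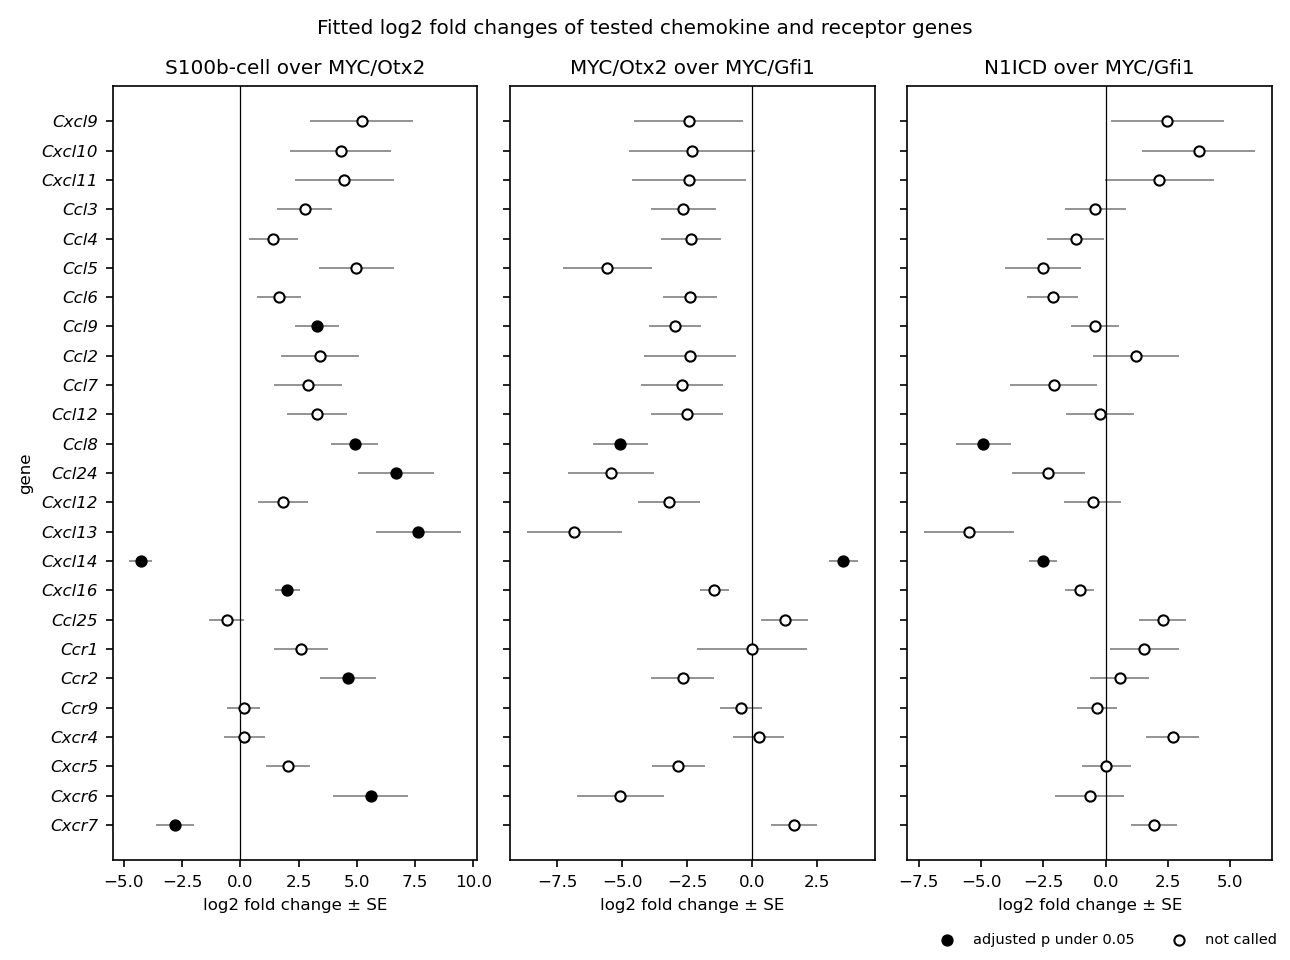
Fitted log2 fold change of 25 tested genes in 3 comparisons, with the group named first on top of the ratio (points are the edgeR estimates, bars are ± 1 SE, and filled points have an adjusted p under 0.05). Cxcl14 and Cxcr7 are the filled points below 0 in S100b-cell over MYC/Otx2, and Cxcl14 is the only filled point above 0 in MYC/Otx2 over MYC/Gfi1.

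The interferon-induced ligands of the receptor Cxcr3 were high in some libraries and near 0 in others of the same model. Cxcl9, which draws activated T cells, was at 0.857, 493 and 0.812 CPM in the N1ICD tumours, 472, 105 and 32.8 CPM in the S100b-cell libraries, 14.7, 1.74 and 0.231 CPM in the MYC/Otx2 tumours and 22.7 and 37.2 CPM in the MYC/Gfi1 tumours. The S100b-cell libraries all lay above the MYC/Otx2 libraries for Cxcl9, whereas the N1ICD group was split between replicate 2 and the other libraries. The log2 fold change of Cxcl9 in S100b-cell over MYC/Otx2 tumours was 5.21 ± 2.21 (SE, edgeR adjusted p = 0.124) and did not pass. In N1ICD over MYC/Otx2 tumours Cxcl9 was at 4.91 ± 2.18 (SE, edgeR adjusted p = 0.131), and without N1ICD replicate 2 it was -2.69 (adjusted p = 0.383), so that library alone set its direction. DESeq2 called both (adjusted p = 0.0333 and 0.0430).

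Cxcl10 was at 0, 19.5 and 0 CPM in the N1ICD tumours, 5.11, 0.484 and 0.235 CPM in the S100b-cell libraries, 0.141, 0 and 0.116 CPM in the MYC/Otx2 tumours and 0.117 and 0.871 CPM in the MYC/Gfi1 tumours. Cxcl11 was at 0.857, 27.5 and 0 CPM in the N1ICD tumours, 10.7, 15.2 and 0.391 CPM in the S100b-cell libraries, 0.283, 0.872 and 0 CPM in the MYC/Otx2 tumours and 0 and 4.36 CPM in the MYC/Gfi1 tumours. The highest library of each was N1ICD replicate 2, the library where Cxcl9 was also highest. Neither gene was called in any comparison by DESeq2 or by edgeR in the main fit of all 4 groups. With the replicate number as a block, edgeR called Cxcl11 higher in S100b-cell than in MYC/Otx2 tumours. The 3 ligand genes lie within 44.1 kb of chromosome 5 (92321347 to 92365485, GRCm38). Cxcl10 and Cxcl11 overlap Art3 on the other strand, and without a stated strand setting for the counting, reads of such a pair cannot be told apart. Cxcl11 is annotated as a polymorphic pseudogene in this assembly. Their receptor Cxcr3 did not pass the filter and had at most 10 counts in any library.

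The libraries with the highest Cxcl9 also had the highest summed level of 18 interferon response genes. That sum was 60.9, 2512 and 61.3 CPM in the N1ICD tumours, 2044, 1112 and 346 CPM in the S100b-cell libraries, 193, 61.5 and 58.1 CPM in the MYC/Otx2 tumours and 412 and 702 CPM in the MYC/Gfi1 tumours. N1ICD replicate 2 and S100b-cell replicate 1 were the highest for both, whereas MYC/Gfi1 replicate 1, at 412 CPM for the list, had Cxcl10 at 0.117 CPM and Cxcl11 at 0. In S100b-cell against MYC/Otx2 tumours, 2 of the 17 tested list genes rose and none fell, against 10% and 7.89% of all genes, with a median log2 fold change of 3.92 (0.17 over all genes). These were Irf9, part of the interferon-activated transcription complex (2.28 ± 0.66, SE, edgeR adjusted p = 0.0400), and the guanylate-binding protein gene Gbp3 (5.34 ± 1.61, SE, edgeR adjusted p = 0.0458). Ifng, the gene of interferon gamma, was at 1.74 CPM in N1ICD replicate 2 and 0 in the other N1ICD libraries, and was highest at 4.27 CPM in S100b-cell replicate 1. The part of interferon-responding cells in the chemokine levels was not tested.

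**Figure D3:**
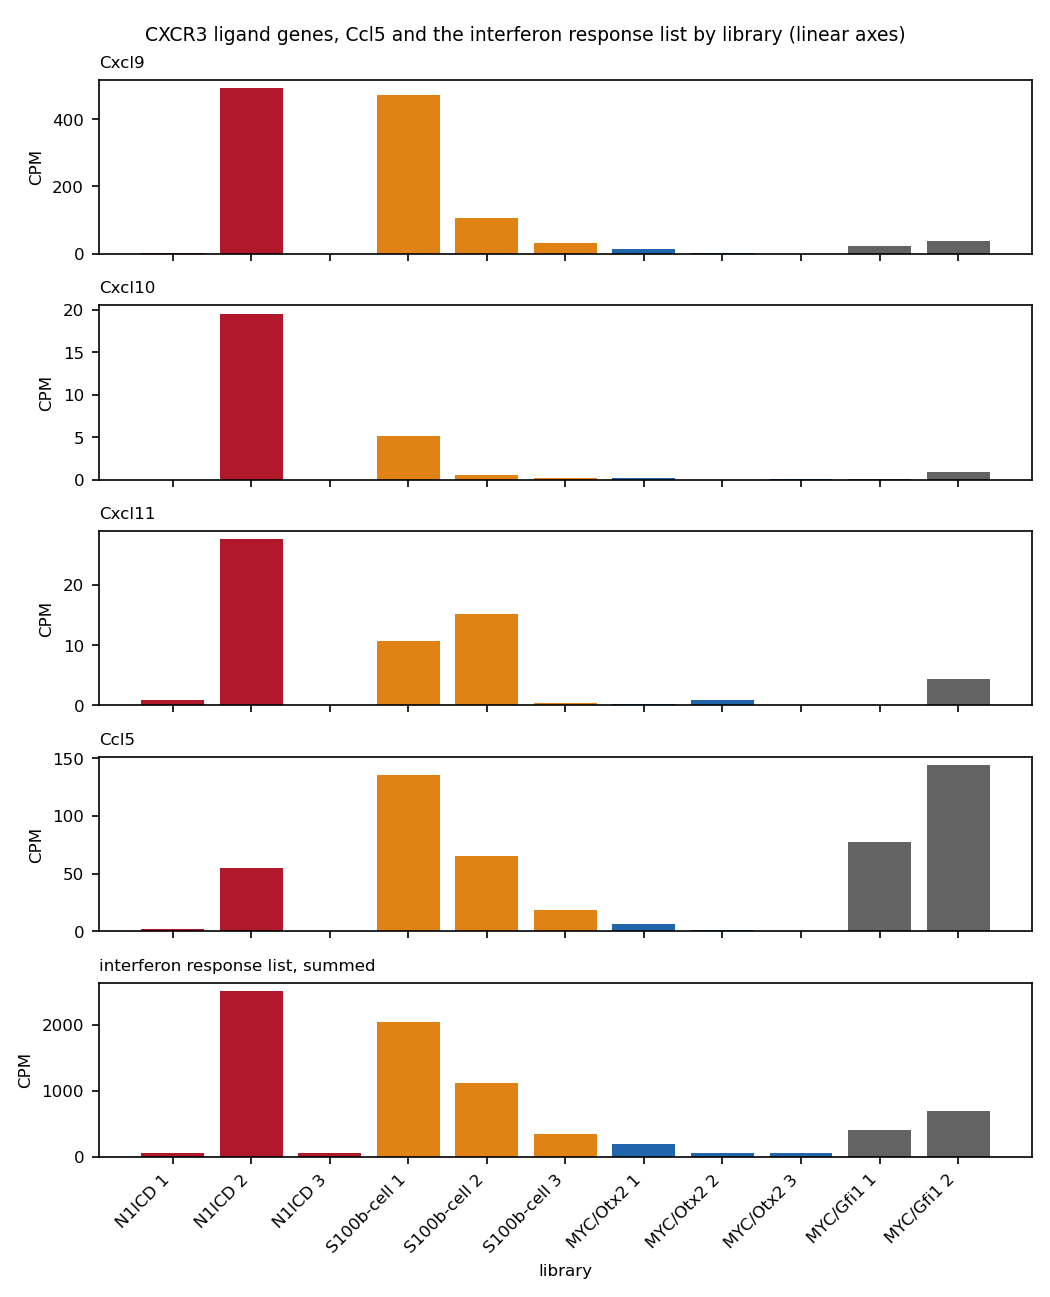
Level of Cxcl9, Cxcl10, Cxcl11 and Ccl5, and the summed level of 18 interferon response genes, in CPM for each library (bars, linear axes from 0, coloured by group). Cxcl9 reaches 493 CPM in N1ICD replicate 2 and 472 CPM in S100b-cell replicate 1, the libraries where the interferon list reaches 2512 and 2044 CPM.

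Of the inflammatory ligands Ccl3, Ccl4, Ccl5, Ccl6 and Ccl9, Ccl9 rose in S100b-cell against MYC/Otx2 tumours and the others did not pass. Ccl5, made by activated T cells, was at 1.71, 54.7 and 0.406 CPM in the N1ICD tumours, 136, 65.2 and 18.4 CPM in the S100b-cell libraries, 6.07, 0.623 and 0.347 CPM in the MYC/Otx2 tumours and 77.4 and 144 CPM in the MYC/Gfi1 tumours. Its levels in the S100b-cell and MYC/Gfi1 libraries all lay above those of the MYC/Otx2 libraries. The log2 fold change of Ccl5 was 4.98 ± 1.62 (SE, edgeR adjusted p = 0.0584) in S100b-cell over MYC/Otx2 tumours and -5.58 ± 1.71 (adjusted p = 0.0777) in MYC/Otx2 over MYC/Gfi1 tumours. DESeq2 called both (adjusted p = 0.00204 and 0.00314).

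Ccl6, a Ccr1 ligand of rodent macrophages, was at 0.857, 30.0 and 9.33 CPM in the N1ICD tumours, 30.6, 51.4 and 25.9 CPM in the S100b-cell libraries, 24.7, 5.73 and 3.70 CPM in the MYC/Otx2 tumours and 66.0 and 52.7 CPM in the MYC/Gfi1 tumours. The MYC/Gfi1 libraries were above every library of the other groups for Ccl6. Ccl9, another Ccr1 ligand, was at 1.29, 1.39 and 2.84 CPM in the N1ICD tumours, 3.43, 1.80 and 3.99 CPM in the S100b-cell libraries, 0.424, 0.498 and 0 CPM in the MYC/Otx2 tumours and 2.80 and 2.18 CPM in the MYC/Gfi1 tumours. All 8 libraries outside the MYC/Otx2 group were above the 3 inside it. Ccl9 rose by a log2 fold change of 3.28 ± 0.94 (SE, edgeR adjusted p = 0.0381) in S100b-cell over MYC/Otx2 tumours, on 7 counts in all in the MYC/Otx2 libraries. The call of Ccl9 was lost when any 1 of the 6 libraries was left out (adjusted p = 0.0631 without S100b-cell replicate 2 to 0.105 without S100b-cell replicate 3), and with no low-count filter (0.0623).

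Ccl4, an inflammatory ligand made by macrophages and T cells, was at 0, 11.9 and 2.03 CPM in the N1ICD tumours, 10.2, 4.01 and 2.58 CPM in the S100b-cell libraries, 2.83, 1.87 and 1.62 CPM in the MYC/Otx2 tumours and 8.39 and 13.4 CPM in the MYC/Gfi1 tumours. Its groups overlapped except between MYC/Otx2 and MYC/Gfi1 tumours. Ccl3, its neighbour gene, ranged from 0.116 CPM in MYC/Otx2 replicate 3 to 4.65 CPM in MYC/Gfi1 replicate 2. Ccl3, Ccl4, Ccl5, Ccl6 and Ccl9 lie within 138.9 kb of chromosome 11 (83525778 to 83664683). Ccl6 overlaps E230016K23Rik on the other strand.

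The Ccr2 ligands, which draw monocytes out of the blood, were low. Ccl2 ranged from 0 to 7.38 CPM, Ccl7 from 0 to 3.30 CPM and Ccl12 from 0 to 3.43 CPM, and each was highest in S100b-cell replicate 1. None of the 3 was called in any comparison. Ccl2 was at 7.38, 0.761 and 0 CPM in the S100b-cell libraries, so the spread within that group covered the range of all the others.

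Ccl8, which in mice acts on Ccr8, split the models into a high pair and a low pair. It was at 0, 4.88 and 0.812 CPM in the N1ICD tumours, 41.7, 61.3 and 57.6 CPM in the S100b-cell libraries, 3.53, 1.62 and 0.231 CPM in the MYC/Otx2 tumours and 38.9 and 81.2 CPM in the MYC/Gfi1 tumours. The lowest S100b-cell or MYC/Gfi1 library, at 38.9 CPM, was above the highest N1ICD or MYC/Otx2 library, at 4.88 CPM. Ccl8 was higher in S100b-cell than in MYC/Otx2 tumours by a log2 fold change of 4.91 ± 1.02 (SE, edgeR adjusted p = 0.0123). It was lower in N1ICD than in MYC/Gfi1 tumours, at -4.91 ± 1.10 (SE, edgeR adjusted p = 0.0226), and lower in MYC/Otx2 than in MYC/Gfi1 tumours, at -5.07 ± 1.06 (SE, edgeR adjusted p = 0.0319).

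The difference in Ccl8 between N1ICD and S100b-cell tumours was -4.75 ± 1.05 (SE) and did not pass with edgeR (adjusted p = 0.0645), though DESeq2 called it (adjusted p = 7.34e-05) and edgeR did so without N1ICD replicate 2 (adjusted p = 0.0397). The call in S100b-cell against MYC/Otx2 tumours was lost without MYC/Otx2 replicate 2 (adjusted p = 0.0521). That in N1ICD against MYC/Gfi1 tumours was lost without N1ICD replicate 3 (adjusted p = 0.0698) or MYC/Gfi1 replicate 2 (adjusted p = 0.0754), and with these groups fitted alone (0.120). That in MYC/Otx2 against MYC/Gfi1 tumours was lost without any 1 MYC/Otx2 library (adjusted p = 0.0710, 0.0816 and 0.0881 without replicates 1, 2 and 3) or MYC/Gfi1 replicate 2 (adjusted p = 0.0900), and with these groups fitted alone (0.0527). It was also lost without S100b-cell replicate 2 (adjusted p = 0.0513) or 3 (0.0536), which enter that comparison through the shared spread. Ccl8 lies on chromosome 11 (82115185 to 82116799, plus strand) in a run of 6 ligand genes, with Ccl2, Ccl7, Ccl11, Ccl12 and Ccl1, that spans 270.1 kb. Of these 6 only Ccl8 was called in any comparison, and Ccl11 and Ccl1 did not pass the filter, with at most 2 and 13 counts in a library. Its receptor Ccr8 was at 0 counts in all 11 libraries.

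Ccl24, the eotaxin that draws eosinophils through Ccr3, was at 0, 1.39 and 0 CPM in the N1ICD tumours, 1.68, 14.5 and 1.80 CPM in the S100b-cell libraries, 0.141, 0 and 0 CPM in the MYC/Otx2 tumours and 1.98 and 3.05 CPM in the MYC/Gfi1 tumours. S100b-cell replicate 2 stood above all other libraries. Ccl24 rose in S100b-cell over MYC/Otx2 tumours (edgeR adjusted p = 0.0219), where the MYC/Otx2 libraries held 1 count in all and the ratio of scaled counts was 144 (95% counting interval 25.5 to 5692). The call of Ccl24 was lost without S100b-cell replicate 2 (adjusted p = 0.0787) and without MYC/Otx2 replicate 1, 2 or 3 (adjusted p = 0.0598, 0.0758 and 0.0787). Ccr3 did not pass the filter, with 3 counts in all in the N1ICD, 47 in the S100b-cell, 0 in the MYC/Otx2 and 10 in the MYC/Gfi1 libraries.

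**Figure D4:**
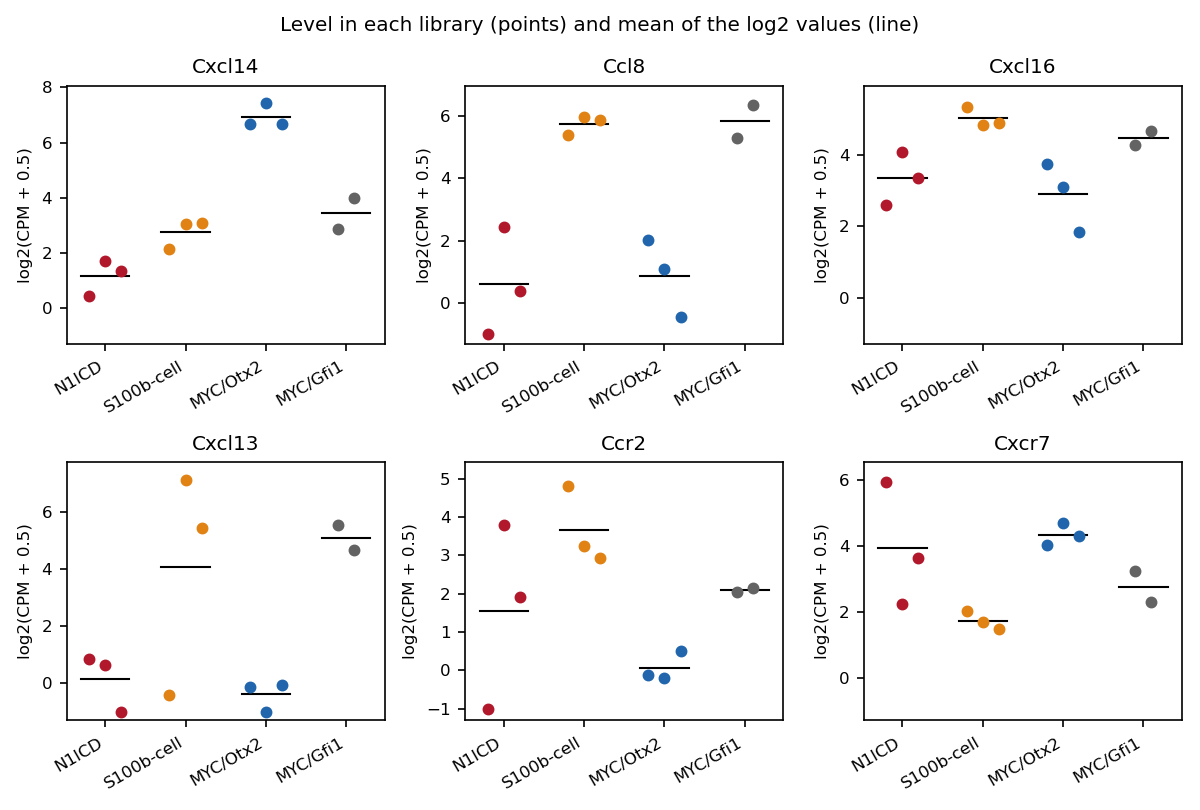
Level of Cxcl14, Ccl8, Cxcl16, Cxcl13, Ccr2 and Cxcr7 in each library as log2(CPM + 0.5), with N1ICD at the left, then S100b-cell, MYC/Otx2 and MYC/Gfi1 (points are libraries and the line is the mean of the log2 values of a group). Ccl8 is at 38.9 to 81.2 CPM in the S100b-cell and MYC/Gfi1 libraries and at most 4.88 CPM in the N1ICD and MYC/Otx2 libraries.

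Cxcl14 had the smallest adjusted p of the chemokine genes in N1ICD against MYC/Gfi1, and in each comparison with MYC/Otx2 tumours. This homeostatic ligand, made in many epithelia and attractive to monocytes, was at 0.857, 2.79 and 2.03 CPM in the N1ICD tumours, 3.88, 7.68 and 7.90 CPM in the S100b-cell libraries, 102, 175 and 101 CPM in the MYC/Otx2 tumours and 6.76 and 15.5 CPM in the MYC/Gfi1 tumours. The MYC/Otx2 libraries were the highest and the N1ICD libraries the lowest, each with no overlap with any other group, and the S100b-cell and MYC/Gfi1 libraries overlapped. Cxcl14 was lower in N1ICD than in MYC/Otx2 tumours by a log2 fold change of -6.02 ± 0.57 (SE, edgeR adjusted p = 0.000538). It was lower in S100b-cell than in MYC/Otx2 tumours, at -4.28 ± 0.49 (SE, edgeR adjusted p = 0.00129), and higher in MYC/Otx2 than in MYC/Gfi1 tumours, at 3.50 ± 0.56 (SE, edgeR adjusted p = 0.0142). It was lower in N1ICD than in MYC/Gfi1 tumours, at -2.52 ± 0.55 (SE, edgeR adjusted p = 0.0210).

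The calls of Cxcl14 in N1ICD and in S100b-cell against MYC/Otx2 tumours were kept whichever of the compared libraries was left out. The call in MYC/Otx2 against MYC/Gfi1 tumours was lost without MYC/Otx2 replicate 3 (adjusted p = 0.0511), and that in N1ICD against MYC/Gfi1 tumours without N1ICD replicate 3 (0.0583) or MYC/Gfi1 replicate 2 (0.104), or with these groups fitted alone (0.144). Between N1ICD and S100b-cell tumours the fold change of Cxcl14 was -1.74 ± 0.52 (SE, edgeR adjusted p = 0.124) and between S100b-cell and MYC/Gfi1 tumours -0.78 ± 0.49 (adjusted p = 0.363), and neither passed. Cxcl14 lies on chromosome 13 (56288643 to 56296551, minus strand), away from the chemokine clusters and overlapping no other annotated gene. The summed level of 8 astroglial genes was 84.1 to 221 CPM in the MYC/Otx2 libraries, below both MYC/Gfi1 libraries (245 and 1278 CPM). It was 63.4 to 3452 CPM in the N1ICD and 81.3 to 342 CPM in the S100b-cell libraries, which overlapped the MYC/Otx2 libraries. The part of astroglial cells in the Cxcl14 level was not tested.

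Cxcl16, a ligand held in the membrane of macrophages and dendritic cells that binds Cxcr6, was at 5.57, 16.7 and 9.74 CPM in the N1ICD tumours, 40.2, 28.6 and 29.8 CPM in the S100b-cell libraries, 13.1, 8.10 and 3.12 CPM in the MYC/Otx2 tumours and 19.1 and 25.4 CPM in the MYC/Gfi1 tumours. The S100b-cell libraries were the highest, the MYC/Gfi1 libraries came next, and the N1ICD and MYC/Otx2 libraries overlapped below them. Cxcl16 rose by a log2 fold change of 2.02 ± 0.53 (SE, edgeR adjusted p = 0.0293) in S100b-cell over MYC/Otx2 tumours. The call of Cxcl16 was lost without any 1 S100b-cell library (adjusted p = 0.0785, 0.0609 and 0.0670 without replicates 1, 2 and 3) and without MYC/Otx2 replicate 2 (0.0875) or 3 (0.0743). Cxcl16 overlaps Zmynd15 on the other strand.

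Cxcl13, which organises B cell follicles through Cxcr5, was at 1.29, 1.05 and 0 CPM in the N1ICD tumours, 0.259, 141 and 43.2 CPM in the S100b-cell libraries, 0.424, 0 and 0.462 CPM in the MYC/Otx2 tumours and 45.8 and 25.1 CPM in the MYC/Gfi1 tumours. S100b-cell replicate 1, with 4 counts, was at the level of the MYC/Otx2 libraries, so the groups overlapped although Cxcl13 was called. Cxcl13 rose by a log2 fold change of 7.63 ± 1.83 (SE, edgeR adjusted p = 0.0209) in S100b-cell over MYC/Otx2 tumours, and the call was lost without S100b-cell replicate 2 (0.0577) or without MYC/Otx2 replicate 1, 2 or 3 (0.0713, 0.0714 and 0.0700), and with no low-count filter (0.0650). With these groups fitted alone Cxcl13 did not pass the low-count filter and was not tested. In N1ICD over MYC/Gfi1 tumours it was -5.48 ± 1.81 (SE, edgeR adjusted p = 0.0758) and in MYC/Otx2 over MYC/Gfi1 tumours -6.84 ± 1.83 (adjusted p = 0.0566), and DESeq2 called both (adjusted p = 0.00627 and 0.000518). The summed level of 9 B and plasma cell genes was 2.57, 1.39 and 0.406 CPM in the N1ICD tumours, 3.88, 8.85 and 77.5 CPM in the S100b-cell libraries, 0.141, 0 and 1.27 CPM in the MYC/Otx2 tumours and 2038 and 290 CPM in the MYC/Gfi1 tumours. In the MYC/Gfi1 libraries Igj was at 1412 and 208 CPM and Igkc at 517 and 21.5 CPM, the larger part of those sums. The B cell receptor gene Cd79b was at 0 in all N1ICD and MYC/Otx2 libraries and at 0.712 to 3.26 CPM in the other 5. Ms4a1, also on the list but below the filter, did not split this way. It was at 0.429, 0.697 and 0 CPM in the N1ICD, 0.259, 1.04 and 0.782 CPM in the S100b-cell and 0.933 and 0 CPM in the MYC/Gfi1 libraries. The part of these cells in the Cxcl13 level was not tested.

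Cxcr5, the receptor of Cxcl13, ranged from 3.14 to 4.46 CPM in the N1ICD libraries, 2.01 to 2.07 CPM in the S100b-cell libraries and 0 to 1.16 CPM in the MYC/Otx2 libraries, and was at 2.56 and 4.65 CPM in the MYC/Gfi1 libraries. It passed in no comparison with edgeR. DESeq2 called it in N1ICD against MYC/Otx2 (adjusted p = 0.00481) and in MYC/Otx2 against MYC/Gfi1 tumours (0.0148), and edgeR in N1ICD against MYC/Otx2 without MYC/Otx2 replicate 3 (0.0286). Cxcr5 overlaps Bcl9l on the other strand.

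Cxcl12, the stromal ligand of Cxcr4 and Cxcr7, was at 3.86, 10.8 and 3.25 CPM in the N1ICD tumours, 5.37, 2.49 and 2.27 CPM in the S100b-cell libraries, 0.565, 2.24 and 0 CPM in the MYC/Otx2 tumours and 4.31 and 13.1 CPM in the MYC/Gfi1 tumours. Every library of the other 3 groups was above every MYC/Otx2 library, by little in S100b-cell replicate 3. The log2 fold change of Cxcl12 was 2.66 ± 1.12 (SE, edgeR adjusted p = 0.111) in N1ICD over MYC/Otx2 tumours and -3.19 ± 1.18 (adjusted p = 0.120) in MYC/Otx2 over MYC/Gfi1 tumours, and neither passed with edgeR. DESeq2 called both, with adjusted p = 0.0385 and 0.0322.

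Cxcr4, the receptor that holds granule progenitors at the cerebellar surface, was at 111, 10.1 and 9.33 CPM in the N1ICD tumours, 11.1, 8.09 and 8.05 CPM in the S100b-cell libraries, 7.91, 6.35 and 9.82 CPM in the MYC/Otx2 tumours and 10.7 and 2.76 CPM in the MYC/Gfi1 tumours. N1ICD replicate 1 stood apart, and the other 10 libraries lay between 2.76 and 11.1 CPM. Cxcr4 passed in no comparison, its fold change in N1ICD over MYC/Gfi1 tumours being 2.68 ± 1.08 (SE, edgeR adjusted p = 0.128). In N1ICD over MYC/Otx2 tumours it was 2.43 ± 0.91 (adjusted p = 0.0817) and was called without N1ICD replicate 2 (0.0497) or 3 (0.0462), which leaves replicate 1 with 1 other library. Without N1ICD replicate 1 it was 0.28 (adjusted p = 0.764).

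Cxcr7 fell in S100b-cell against MYC/Otx2 tumours. It was at 60.4, 4.18 and 11.8 CPM in the N1ICD tumours, 3.56, 2.70 and 2.27 CPM in the S100b-cell libraries, 15.7, 25.4 and 19.2 CPM in the MYC/Otx2 tumours and 8.86 and 4.36 CPM in the MYC/Gfi1 tumours. The S100b-cell libraries were the lowest of all, and N1ICD replicate 1 was the highest, as for Cxcr4. The log2 fold change of Cxcr7 was -2.81 ± 0.81 (SE, edgeR adjusted p = 0.0390) in S100b-cell over MYC/Otx2 tumours, and the call was lost when any 1 of the 6 libraries was left out (adjusted p = 0.0742 without MYC/Otx2 replicate 1 to 0.122 without S100b-cell replicate 3). In N1ICD over S100b-cell tumours it was 3.15 ± 0.83 (adjusted p = 0.0958), with no overlap, and was called without N1ICD replicate 2 (0.0385) and by DESeq2 (0.00193).

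The library with the highest Cxcr4 and Cxcr7 also had the highest astroglial sum. That sum of 8 genes was 3452, 63.4 and 244 CPM in N1ICD replicates 1, 2 and 3, and the pericyte and smooth muscle sum of 8 genes was 275, 6750 and 2707 CPM in the same libraries, so the N1ICD tumours differed among themselves in both. The pericyte and smooth muscle sum was 109 to 209 CPM in the S100b-cell, 65.0 to 136 CPM in the MYC/Otx2 and 54.4 and 144 CPM in the MYC/Gfi1 libraries. The sum of 8 granule progenitor genes was 171, 9.06 and 14.6 CPM in N1ICD replicates 1, 2 and 3. Over all libraries that sum was highest in MYC/Gfi1 replicate 2, at 1689 CPM. A sum of 7 mature granule cell genes was highest in the same library, at 3192 CPM, against 182 CPM in MYC/Gfi1 replicate 1. Atoh1 was at 0 in MYC/Gfi1 replicate 2, so its granule progenitor sum does not by itself mark progenitors. The part of these cells in the receptor levels was not tested.

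**Figure D5:**
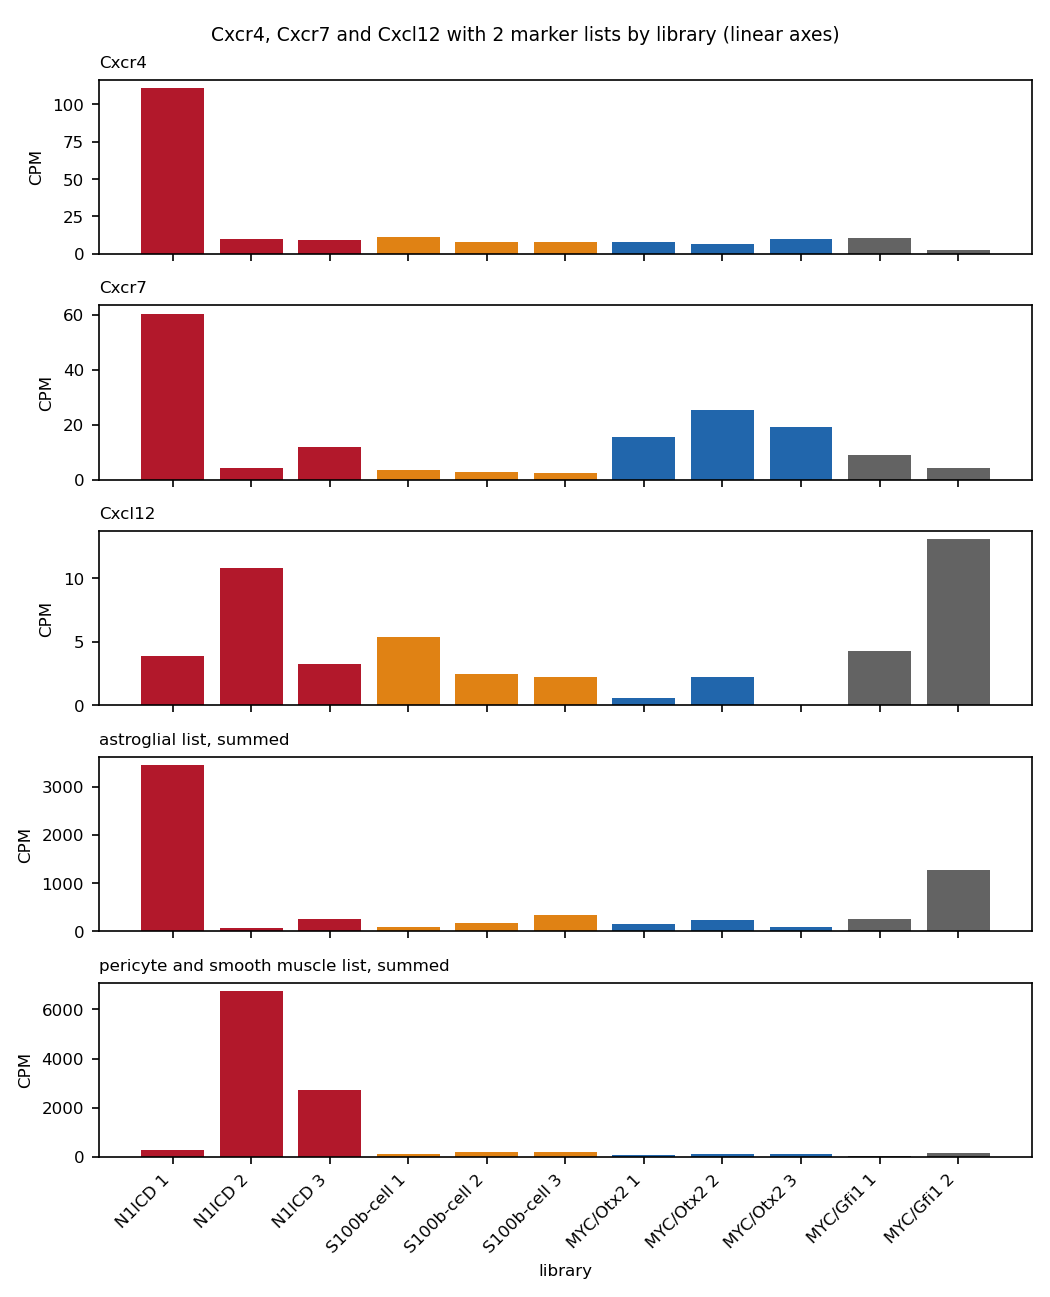
Level of Cxcr4, Cxcr7 and Cxcl12, and the summed levels of 8 astroglial and 8 pericyte and smooth muscle genes, in CPM for each library (bars, linear axes from 0, coloured by group). N1ICD replicate 1 has the highest Cxcr4 (111 CPM), Cxcr7 (60.4 CPM) and astroglial sum (3452 CPM), while the pericyte and smooth muscle sum is highest in N1ICD replicate 2 (6750 CPM).

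Among the receptors of white blood cells, Ccr2 and Cxcr6 rose in S100b-cell against MYC/Otx2 tumours. Ccr2, the receptor of inflammatory monocytes, was at 0, 13.2 and 3.25 CPM in the N1ICD tumours, 27.8, 8.92 and 7.19 CPM in the S100b-cell libraries, 0.424, 0.374 and 0.924 CPM in the MYC/Otx2 tumours and 3.61 and 3.92 CPM in the MYC/Gfi1 tumours. The S100b-cell libraries were above both constitutive groups, and the N1ICD libraries overlapped each of the other groups. The log2 fold change of Ccr2 was 4.62 ± 1.21 (SE, edgeR adjusted p = 0.0279) in S100b-cell over MYC/Otx2 tumours. The call was kept without S100b-cell replicate 3 and lost without any other of the 6 libraries (adjusted p = 0.0506 without S100b-cell replicate 2 to 0.0936 without MYC/Otx2 replicate 2).

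Cxcr6, the receptor of Cxcl16 on T and natural killer cells, was at 0, 3.49 and 0 CPM in the N1ICD tumours, 4.33, 2.28 and 1.49 CPM in the S100b-cell libraries, 0, 0 and 0.116 CPM in the MYC/Otx2 tumours and 2.33 and 1.45 CPM in the MYC/Gfi1 tumours. Cxcr6 was detected in every S100b-cell and MYC/Gfi1 library, and in 1 library each of the N1ICD and MYC/Otx2 groups. In S100b-cell over MYC/Otx2 tumours it was called (edgeR adjusted p = 0.0390) with a ratio of scaled counts of 66.2 (95% counting interval 11.7 to 2637), the MYC/Otx2 libraries holding 1 count in all. Leaving out any 1 of the 6 libraries ended the call (adjusted p = 0.0711 without S100b-cell replicate 3 to 0.113 without MYC/Otx2 replicate 2). In N1ICD over MYC/Otx2 tumours its direction rested on N1ICD replicate 2, since the fitted log2 fold change was -1.95 (adjusted p = 0.708) without it. Cxcr6 overlaps Fyco1 on the other strand. Ccr1 ranged from 0 to 3.82 CPM, with its highest level in S100b-cell replicate 1.

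Ccr9, the receptor of Ccl25 on gut-homing lymphocytes, ranged from 1.22 to 7.99 CPM over all libraries and Ccl25 from 0.581 to 6.43 CPM, and neither was called in any comparison. The fold changes of Ccr9 in the 6 comparisons lay between -0.44 and 0.15 on the log2 scale. Ccr9 overlaps 6 annotated genes and Ccl25 overlaps Elavl1, so their counts are uncertain.

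Of the 22 genes that did not pass the filter, Cxcl5, a Cxcr2 ligand that draws neutrophils, came closest to the level of those described, and in a single library. It had 0, 0 and 1 counts in the N1ICD libraries, 2, 15 and 15 counts in the S100b-cell libraries, 0, 4 and 7 counts in the MYC/Otx2 libraries and 3 and 116 counts in the MYC/Gfi1 libraries. Ccr6, a receptor of B and T cells, reached 38 counts in S100b-cell replicate 3, and Ccr3 reached 34 counts in S100b-cell replicate 2. Ccl1, Ccl22, Ccr3, Ccr6 and Ccr7 had 28, 12, 47, 51 and 18 counts in all in the S100b-cell libraries, against 2, 0, 0, 0 and 0 in the MYC/Otx2 libraries. The S100b-cell libraries were the deepest, and a count of 0 in a MYC/Otx2 library allows up to 0.347 to 0.424 CPM (3 counts). The other 12 with any count were Ccl11, Ccl17, Ccl19, Ccl20, Ccl28, Ccr4, Ccr10, Cxcl1, Cxcl2, Cxcl17, Cxcr2 and Cxcr3, none with more than 15 counts in a library. All such floors and intervals cover counting error only.

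Genes that carry the signal inside the cell from chemokine receptors were described from a list of 30, of which 29 were in the table and 28 were tested. In S100b-cell against MYC/Otx2 tumours 6 rose and 4 fell, against 10% and 7.89% of all genes, with a median log2 fold change of 0.77 (0.17 over all genes). Gnai1, an inhibitory G protein subunit to which these receptors couple, was at 69.8, 54.7 and 46.9 CPM in the S100b-cell libraries, against 0.565, 4.48 and 2.66 CPM in the MYC/Otx2 tumours. Its log2 fold change was 4.46 ± 0.68 (SE, edgeR adjusted p = 0.00333). The other G protein subunit genes called did not all go this way. Gnai2 rose by 1.38 ± 0.36 (SE, edgeR adjusted p = 0.0293). Gnai3 fell, at -1.48 ± 0.40 (adjusted p = 0.0319), as did Gnb1, at -0.84 ± 0.23 (adjusted p = 0.0349). Vav1, an exchange factor of blood cells, rose by 2.65 ± 0.67 (SE, edgeR adjusted p = 0.0249) and Rgs3, a regulator of G protein signalling, by 4.12 ± 1.04 (adjusted p = 0.0246). Grk5, a kinase that desensitises receptors, fell, at -2.90 ± 0.55 (SE, edgeR adjusted p = 0.00823), and Grk6, also a receptor kinase, was at -0.16 ± 0.34 (adjusted p = 0.768).

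The list of signalling genes had 4 higher and 4 lower of 28 in N1ICD against MYC/Otx2 tumours (12.0% and 9.76% of all genes). It had 1 lower in N1ICD against MYC/Gfi1 tumours (6.05% of all genes) and 1 lower in MYC/Otx2 against MYC/Gfi1 tumours (3.03%). Gnai1 was the one that fell in MYC/Otx2 against MYC/Gfi1 tumours, at -3.85 ± 0.69 (SE, edgeR adjusted p = 0.0189), and the receptor kinase gene Adrbk1 the one that fell in N1ICD against MYC/Gfi1 tumours, at -1.50 ± 0.39 (adjusted p = 0.0351). None of the 28 was called in N1ICD against S100b-cell or in S100b-cell against MYC/Gfi1 tumours by edgeR, where 3 each had an unadjusted p under 0.05, against 18.7% and 23.7% of all genes.

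Chemokine genes whose names fall outside the pattern were described from a list of 23, of which 16 were tested. Of the 16, edgeR called 2 higher and 1 lower in N1ICD against MYC/Otx2 tumours, against 12.0% and 9.76% of all genes. It called 2 higher and 0 lower in N1ICD against MYC/Gfi1 tumours (5.47% and 6.05%). In S100b-cell against MYC/Otx2 tumours it called 1 higher and 0 lower (10% and 7.89%), and in the other comparisons none. Ccrl2, a receptor-like protein that presents chemerin, rose in N1ICD against MYC/Otx2 tumours (4.03 ± 1.02, SE, edgeR adjusted p = 0.0212) and in S100b-cell against MYC/Otx2 tumours (3.42 ± 0.99, adjusted p = 0.0390). The signalling chemerin receptor gene Cmklr1 rose in N1ICD against MYC/Otx2 tumours, by 3.46 ± 0.74 (SE, edgeR adjusted p = 0.0115), and Dpp4, a protease that trims chemokines, fell, at -4.28 ± 1.08 (adjusted p = 0.0212). Mif, a cytokine that can act through Cxcr4, rose in N1ICD against MYC/Gfi1 tumours by 1.48 ± 0.35 (SE, edgeR adjusted p = 0.0269). Ccbp2, a scavenger receptor now named Ackr2, was at 3.86, 1.74 and 0.812 CPM in the N1ICD tumours, against 0 and 0 CPM in the MYC/Gfi1 tumours, and was called (adjusted p = 0.0263). The microglial receptor gene Cx3cr1 ranged from 51.6 to 70.6 CPM in the N1ICD, 32.3 to 196 CPM in the S100b-cell and 38.9 to 117 CPM in the MYC/Otx2 tumours and was at 133 and 195 CPM in the MYC/Gfi1 tumours, and it was called in no comparison.

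Some markers of white blood cells were also called in S100b-cell against MYC/Otx2 tumours, where 10% of all genes rose and 7.89% fell. Of 17 microglia and macrophage genes tested, 5 rose and none fell in that comparison, and their sum was 872 to 990 CPM in the S100b-cell, against 199 to 729 CPM in the MYC/Otx2 libraries. It was 140 to 398 CPM in the N1ICD libraries and 690 and 731 CPM in the MYC/Gfi1 libraries. Of 12 T and natural killer cell genes tested, 3 rose, Cd3d, Cd2 and Gzmb, and the sum over 13 genes was 25.8 to 89.7 CPM in the S100b-cell, against 2.24 to 9.46 CPM in the MYC/Otx2 libraries. The T cell receptor genes Cd3d, Cd3e and Cd3g were at 0 in every MYC/Otx2 library. Cd8a, a co-receptor gene of cytotoxic T cells, was at 0.388, 1.38 and 0.313 CPM in the S100b-cell libraries, against 3.39, 0.249 and 3.70 CPM in the MYC/Otx2 libraries, and was not called (edgeR adjusted p = 0.270). Of 7 dendritic cell genes tested 3 rose, Cd74, H2-Aa and Itgax. The list sum was 572 to 674 CPM in the S100b-cell, against 11.8 to 145 CPM in the MYC/Otx2 libraries. Most of the S100b-cell sums came from H2-Ab1 (250 to 290 CPM), H2-Aa (207 to 272 CPM) and Cd74 (83.2 to 109 CPM). Clec9a, on the same list, was at 0.19 ± 1.12 (SE, edgeR adjusted p = 0.921), and Flt3 was not called either (adjusted p = 0.252). Of 10 neutrophil and monocyte genes only 3 could be tested, and 2 of these rose. The sum over the 10 was 20.8 to 123 CPM in the S100b-cell, against 1.13 to 2.49 CPM in the MYC/Otx2 libraries. Ly6c2, called higher, was at 119, 14.0 and 13.8 CPM in the S100b-cell libraries, most of the sum of 123 CPM in replicate 1. Ly6g was at 0 in every library, and Camp, Ltf, Ngp and Elane did not pass the filter. Of 14 NF-kB and inflammatory cytokine genes tested, Il1b, an inflammatory cytokine gene, alone was called in that comparison, and it rose (4.46 ± 1.33, SE, edgeR adjusted p = 0.0442). The part of these cells in the chemokine and receptor levels was not tested.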

How the data were processed

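RNA was extracted with TRIzol and sequenced from its 3′ ends (QuantSeq, forward kit) with molecular identifiers added at second-strand synthesis, per the labels' protocols. Per the submitters' processing notes, STAR 2.4.1d, HTSeq 0.6.1 and the mouse build mm10 were used. The labels and notes used here name no annotation release, strand setting or collapse of identifiers. Raw counts per gene were deposited by the authors, 1 column per library, with no normalization.

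Of 38406 genes, 15228 passed filterByExpr by group (minimum count 10) and were tested in edgeR 4.0.16 (R 4.3.3). Counts were scaled by TMM, and CPM was taken over the scaled totals of the tested genes. The 4 groups entered 1 quasi-likelihood fit with 7 residual degrees of freedom, because 1 group has 2 libraries, so the spread is pooled. P-values are two-sided and adjusted by Benjamini-Hochberg over all tested genes in each of 6 comparisons. Each SE is a log2 fold change divided by its root F statistic. No pair of replicate libraries agreed within sampling noise (chi-square per degree of freedom 20.9 to 126). Values in every library are given for genes called in any comparison or averaging at least 5 CPM in a group, from marker and pathway lists for up to 4 called genes with the smallest p and the 2 highest not called, and for the others ranges or counts. A few further list genes are given for comparison. The genes and lists were chosen with earlier results of these data known. Alternatives were RLE scaling, no filter, DESeq2 1.42.0, a replicate block, the compared groups alone and leaving out each library. The fit was tested on simulated data. Values of 1 gene are not reported here. Promoter windows are RefSeq on GRCm38.p6, and positions are from GENCODE on GRCm38.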

Additional observations from a re-analysis of the deposited data

How the results depend on the processing

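Alternatives were run for the counts of called genes and for 49 fold changes of single genes. The 49 were those with an unadjusted p under 0.05 in edgeR's main fit, whether called or not. Only those called there could lose a call, and only the others could gain one, so neither number is a share of all values. The 49 fold changes had 511 values under the alternatives, with the counts of called genes left out. Of these, 413 kept their direction and their side of the threshold, 64 lost and 32 gained a call, and 2 reversed, both in N1ICD over MYC/Otx2 tumours without N1ICD replicate 2, Cxcl9 to -2.69 and Cxcr6 to -1.95 (up to 7.38 and 6.31 without other libraries). In what follows, counts are given for N1ICD against MYC/Gfi1, N1ICD against MYC/Otx2, N1ICD against S100b-cell, S100b-cell against MYC/Gfi1, S100b-cell against MYC/Otx2 and MYC/Otx2 against MYC/Gfi1 tumours, in this order. The chemokine and receptor genes called were 2, 1, 0, 0, 10 and 2. They were the same with RLE scaling, 2, 1, 0, 0, 7 and 2 without the filter, 3, 7, 3, 0, 12 and 10 with DESeq2, and 0, 1, 0, 0, 12 and 2 with the compared groups fitted alone. Leaving out 1 library gave 0 to 3, 1 to 2, 0 to 2, 0 to 0, 1 to 12 and 0 to 4. Over all genes the counts were 1754, 3315, 185, 663, 2727 and 832, with DESeq2 3369, 4653, 1360, 2306, 4327 and 2695, with the compared groups alone 15, 3167, 83, 0, 4622 and 365, without the filter 1261, 2621, 206, 457, 2202 and 710, and with 1 library left out 797 to 2214, 1654 to 4067, 9 to 283, 12 to 1995, 1192 to 3482 and 65 to 2170. The share of calls that were higher moved most for N1ICD against MYC/Gfi1 with the groups alone (26.7% against 47.5%), for N1ICD against S100b-cell without the filter (55.3% against 66.5%) and for S100b-cell against MYC/Gfi1 with DESeq2 (42.1% against 53.8%). RLE scaling moved no median over all genes by as much as 0.1. The cause of these shifts was not tested, other than that fits of the groups alone and without a library use fewer libraries.

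Replicate numbers did not pair the libraries: of 15 same-numbered pairs across groups, 3 had deviations from their group means that correlated above 0.1, the range being -0.17 to 0.19. With the replicate number as a block, 1, 1, 0, 0, 8 and 1 chemokine and receptor genes and 789, 2213, 59, 102, 1904 and 209 of all genes were called. The block lost Ccl8 in N1ICD against MYC/Gfi1 (adjusted p = 0.0509) and in MYC/Otx2 against MYC/Gfi1 tumours (0.0694). In S100b-cell against MYC/Otx2 tumours it lost Ccl9 (0.0833), Ccr2 (0.0607), Cxcl13 (0.0589) and Cxcr6 (0.0751) and gained Ccl5 (0.0433) and Cxcl11. Fitting that pair alone gained Ccl3 (adjusted p = 0.0327), Ccl5 (0.0211) and Cxcl9 (0.0381). N1ICD libraries are the shallowest, so genes near 0 there are the least certain.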
